A study of Mus musculus with 5 samples.

Results

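Genes of late mitosis were followed in the mammary gland: Prc1, Racgap1, Ect2, Anln, Cit and Cep55 of the spindle midzone and cytokinesis, Nusap1, Aspm and Hmmr of the mitotic spindle, and the proliferation marker Mki67. They were taken by name from the annotation of the array, with the brightest probe set per symbol, and all 10 were measured among 19938 genes. Each had 1 probe set, and no probe set shared with another gene held any of them. The study set 3 bitransgenic rtTA/cyclin D1 mice against 2 mice with the rtTA transgene alone. All were FvB/N females aged 8 weeks, and total RNA of the whole gland of each mouse went on 1 Affymetrix whole-transcript array. The rtTA transgene is driven by MMTV, a viral promoter used in mammary epithelium, and makes a transactivator that needs doxycycline to act. The protocol in the labels gives doxycycline for 7 days, but names a KE mutant of cyclin D1 in doing so, and does not state whether the rtTA controls were given the drug.

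When chromosomes have separated, antiparallel microtubules between them are bundled into a midzone, and the midzone tells the cell cortex where to build a contractile ring of actin and myosin. The ring narrows to a bridge, which is then cut. Most of these genes are transcribed in G2 and mitosis and kept low in resting cells, and several are used as markers of dividing cells. In the mammary gland, such cells are found in ducts and alveolar buds, mainly during puberty, the estrous cycle and pregnancy.

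The start sites of these genes are shown because the genes share a feature there that was not used to choose them. Genes of late cell cycle phases often carry a cell cycle genes homology region (CHR), bound by the MuvB complex, and a CCAAT box, bound by NF-Y. The windows of RefSeq (GRCm38.p6), from 250 bases before to 50 bases after the first base of each transcript, were searched on both strands for the CHR letters TTTGAA, for the letters CCAAT and for an E2F core, GCGGGAA. Where a gene had more than 1 window, as 3 of the 10 did, the first listed was read. The CHR letters were in 8 of the 10 windows, all but those of Cit and Nusap1, and in 15.1% of the 15005 windows of tested protein-coding genes. CCAAT was in 6 of the 10 against 38.2% of all windows, and both motifs together were in 6 of the 10 against 6.1%. The E2F core was in 0 of the 10 against 6.54%. Among 31 windows of other spindle and proliferation genes, 61.3% held the CHR letters, 77.4% CCAAT and 51.6% both, and among 25 windows of other midzone and cytokinesis genes 36.0% held the CHR letters. No matches of the 3 motifs overlapped in the windows of the 10 members, and overlaps were not counted in the other lists. These are descriptions of letters, not of binding, and were not tested. The last 200 bases of 6 windows follow, 5′ to 3′, with the matches in capitals. They show the 2 genes with the largest expression differences that hold both motifs (Hmmr, Mki67), 2 midzone and RhoA genes with both (Prc1, Ect2), a gene with both whose expression groups overlapped (Aspm), and a gene whose groups did not overlap and that holds none (Nusap1).
Hmmr, chr11:40733388-40733587, minus strand: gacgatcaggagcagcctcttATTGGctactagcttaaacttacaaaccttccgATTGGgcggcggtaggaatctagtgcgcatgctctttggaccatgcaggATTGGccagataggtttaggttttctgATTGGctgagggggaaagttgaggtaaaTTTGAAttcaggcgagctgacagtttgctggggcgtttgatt
Prc1, chr7:80294301-80294500, plus strand: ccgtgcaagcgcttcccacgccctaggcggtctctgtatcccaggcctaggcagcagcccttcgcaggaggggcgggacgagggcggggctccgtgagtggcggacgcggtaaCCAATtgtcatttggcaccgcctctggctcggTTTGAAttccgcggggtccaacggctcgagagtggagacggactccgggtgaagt
Ect2, chr3:27153829-27154028, minus strand: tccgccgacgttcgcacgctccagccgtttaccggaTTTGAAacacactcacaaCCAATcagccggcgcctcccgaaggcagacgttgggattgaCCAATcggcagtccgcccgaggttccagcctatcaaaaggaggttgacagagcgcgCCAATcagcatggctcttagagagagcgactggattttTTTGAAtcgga
Mki67, chr7:135716330-135716529, minus strand: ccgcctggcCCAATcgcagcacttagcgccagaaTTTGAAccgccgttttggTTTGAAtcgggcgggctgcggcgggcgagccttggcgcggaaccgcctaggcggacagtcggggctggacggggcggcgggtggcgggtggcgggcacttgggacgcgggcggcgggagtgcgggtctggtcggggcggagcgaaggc
Aspm, chr1:139454623-139454822, plus strand: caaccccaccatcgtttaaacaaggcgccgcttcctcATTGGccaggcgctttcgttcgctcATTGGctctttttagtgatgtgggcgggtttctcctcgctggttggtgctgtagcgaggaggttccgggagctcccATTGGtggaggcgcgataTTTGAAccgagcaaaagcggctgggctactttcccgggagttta
Nusap1, chr2:119618148-119618347, plus strand: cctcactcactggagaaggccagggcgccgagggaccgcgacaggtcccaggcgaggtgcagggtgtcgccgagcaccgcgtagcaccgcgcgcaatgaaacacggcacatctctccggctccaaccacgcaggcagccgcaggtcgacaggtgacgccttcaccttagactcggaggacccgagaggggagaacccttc

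In Hmmr, 4 CCAAT boxes of the printed stretch lay upstream of a CHR match whose first base was base 9, counting from 1 at the start site. The CHR matches of Aspm and Racgap1 began at bases 7 and 6, and that of Prc1 at base -5. Mki67 differed in that its 2 CHR matches began at bases -116 and -98. Its 3 CCAAT boxes were further upstream still.

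**Figure D1:**
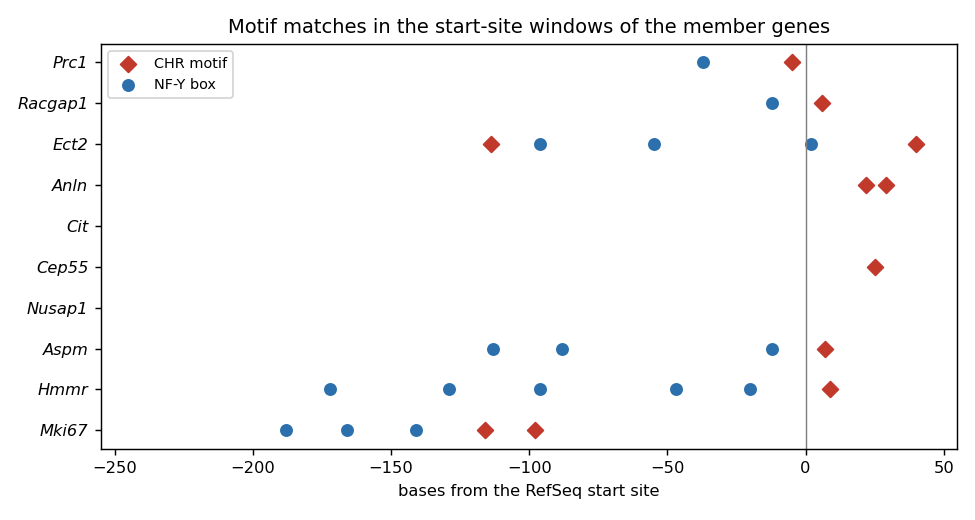
Motif matches in the 10 start-site windows. The horizontal axis gives the first base of each match in bases from the RefSeq start site, diamonds mark the CHR motif and circles the NF-Y box. Cit and Nusap1 have no match, and the CHR matches of Prc1, Racgap1, Aspm and Hmmr lie within 9 bases of the start site.

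The arrays differed in range. Across genes the SD of log2 expression was 1.32, 1.38 and 1.20 in the cyclin D1 arrays and 0.735 and 0.926 in the control arrays, so bright genes tend to be higher and dim genes lower in cyclin D1 glands. Values are therefore also given after the 5 arrays were quantile-normalized again ("renormalized"). The mean of 1015 olfactory receptor genes served as a floor, at 2.03, 1.97 and 2.23 in the cyclin D1 arrays and 2.52 and 2.38 in the control arrays. No detection calls were used here. Racgap1, Cep55 and Hmmr lay at or below the floor in both controls, Prc1 and Ect2 in 1, and the other 5 members on no array. All 10 were above the floor on all 3 cyclin D1 arrays. The cyclin D1 gene, Ccnd1, read 4.63, 4.92 and 4.005 in cyclin D1 glands and 4.04 and 3.49 in control glands, which overlap. Its difference of 0.75 did not pass (limma adjusted p = 0.218) and turned to -0.14 after renormalization. Whether its probe set reads the transgene is not known from the sources used here, so these values do not measure the transgene.

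As a group, 7 of the 10 members had all 3 cyclin D1 values above both control values, and 9 of 10 had a positive difference. Across all genes 22.4% had all 3 cyclin D1 values above both controls, and 44.3% had a positive difference. After renormalization the count was 8 of 10, against 20.1% of all genes. The median log2 difference of the 10, cyclin D1 minus control, was 1.04, beside -0.05 over all genes tested, and it was 1.00 after renormalization, beside -0.02. The median was also 1.04 with the members at the floor in both controls set to their bounds. None of the 10 passed limma's test over all genes (0 of 10 at an adjusted p under 0.05), where 5.38% of genes were called higher and 0.687% lower. At an unadjusted p under 0.05, 5 of the 10 were higher, against 16.2% of all genes. After renormalization 0 of 10 passed as well, where 0.256% of genes were called higher and 0.105% lower. At an unadjusted p under 0.05, 7 of the 10 were then higher, against 9.33% of all genes.

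The mice of the cyclin D1 group were unequal. As deposited, cyclin D1 replicate 2 had the highest value of the 5 arrays for 8 of the 10 members. The mean over the members was 3.15, 4.12 and 3.59 in cyclin D1 glands 1, 2 and 3 and 2.73 and 2.58 in control glands. Without cyclin D1 replicate 2 the median difference was 0.63, beside -0.03 over all genes, and 9 of 10 stayed positive. Cyclin D1 replicate 1 was, as deposited, the lowest of its group for 8 of the 10, yet its mean over the members lay above both controls. After renormalization Nusap1 was highest in cyclin D1 replicate 3 (4.25, against 4.12 in replicate 2) and Aspm in control 1 (4.22, against 3.51). Mki67 was then nearly level in cyclin D1 replicates 2 and 3 (6.15 and 6.14). The renormalized means over the members were 3.13, 3.83 and 3.49 in cyclin D1 glands and 2.74 and 2.55 in control glands.

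**Figure D2:**
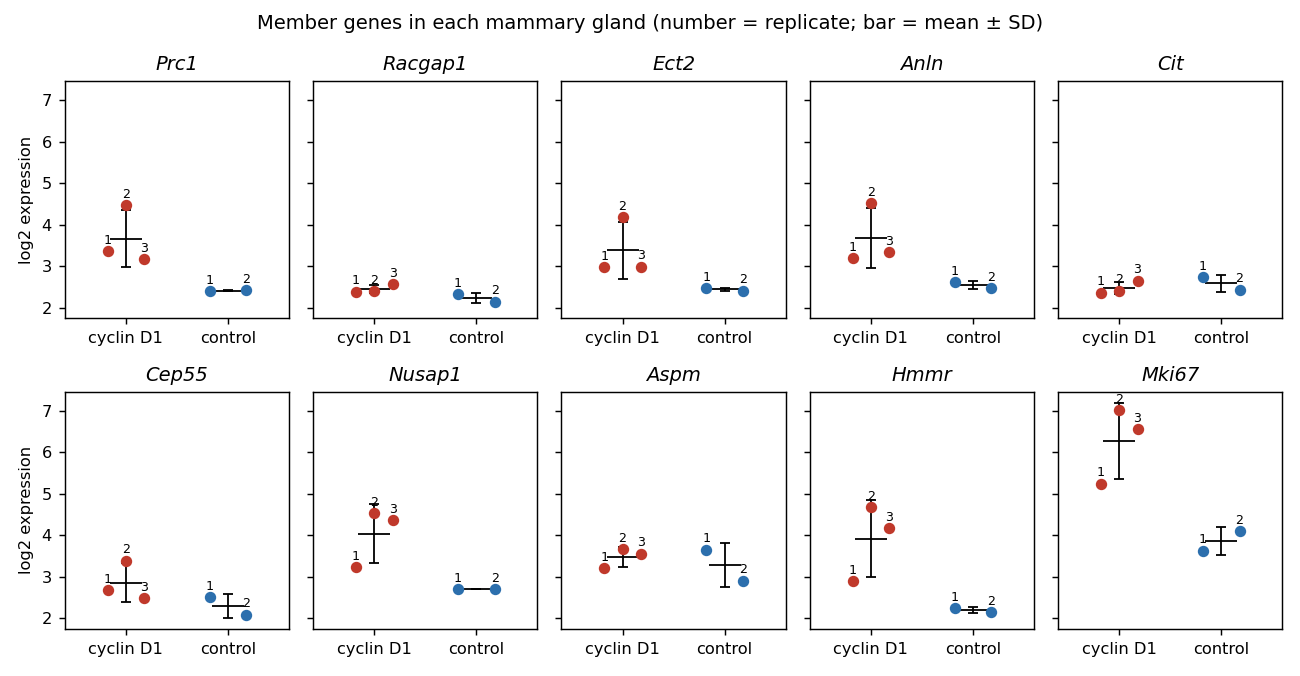
Log2 expression of each member in every gland, with cyclin D1 glands in red and control glands in blue. Points are single mice numbered by replicate and bars are mean ± SD (n = 3 and n = 2). In these deposited values cyclin D1 replicate 2 stands highest in 8 of 10 panels, and the groups overlap for Cit, Cep55 and Aspm.

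Prc1 bundles the antiparallel microtubules of the midzone and recruits the kinesin Kif4. Its gene (probe set 10554445, chr7:80294445-80316259) read 3.36, 4.46 and 3.17 in cyclin D1 glands and 2.40 and 2.42 in control glands. The groups did not overlap. Control 1 lay below the floor, so the small gap between the controls does not measure the spread between mice, and the difference is inexact. The log2 difference was 1.25 (SE 0.41, limma adjusted p = 0.132), with a 95% interval of 0.23 to 2.28, and 1.21 after renormalization. Without cyclin D1 replicate 2 it was 0.85.

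Racgap1 is the GTPase-activating subunit of centralspindlin and brings Ect2 to the midzone. Its gene (probe set 10432511, chr15:99620496-99651656) read 2.39, 2.39 and 2.57 in cyclin D1 glands and 2.31 and 2.14 in control glands. The values were close to the floor throughout, and both controls lay below it. The cyclin D1 mean of 2.45 does not exceed the mean floor of the controls, so no fold can be given. The measured difference was 0.22 (SE 0.14, limma adjusted p = 0.37), with an interval of -0.14 to 0.58, and 0.40 after renormalization.

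Ect2 is the exchange factor that activates the GTPase RhoA at the equator. Its gene (probe set 10497520, chr3:27097222-27154253) read 2.97, 4.18 and 2.99 in cyclin D1 glands and 2.46 and 2.41 in control glands. Replicate 2 stood well above replicates 1 and 3, which were nearly alike and above both controls. The difference was 0.94 (SE 0.40, limma adjusted p = 0.216), and 0.54 without replicate 2. Renormalization left it at 0.94. It is inexact because control 1 lay below the floor.

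Anln encodes anillin, a scaffold that ties RhoA, actin, myosin and septins together in the ring. The gene (probe set 10591781, chr9:22331214-22389211) read 3.19, 4.52 and 3.34 in cyclin D1 glands and 2.62 and 2.47 in control glands. No value of the groups overlapped, and cyclin D1 replicate 2 again stood highest. The difference was 1.14 (SE 0.42, limma adjusted p = 0.168), 1.07 after renormalization and 0.72 without replicate 2.

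Cit encodes citron kinase, which keeps the late ring and midbody in order. It was the only member with a negative difference. The gene (probe set 10524790, chr5:115845224-116008953) read 2.36, 2.41 and 2.65 in cyclin D1 glands and 2.73 and 2.43 in control glands, which overlap. The difference of -0.11 (SE 0.17, limma adjusted p = 0.699) had an interval of -0.54 to 0.32, and it turned to 0.024 after renormalization and to 0.028 after centring and scaling. Neither direction can be read from it.

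Cep55 gathers the abscission machinery at the midbody through Alix and Tsg101. The gene (probe set 10462866, chr19:38054970-38074425) read 2.68, 3.39 and 2.49 in cyclin D1 glands and 2.51 and 2.09 in control glands. Replicate 3 lay just below control 1, so the groups overlap. Both controls were below the floor, and the difference was at least 0.40 on the log2 scale (means 2.85 and 2.30, limma adjusted p = 0.315). That bound allows for the floor only, not for the spread between mice. The measured difference was 0.55 (SE 0.31), with a 95% interval of -0.23 to 1.34, and 0.29 without cyclin D1 replicate 2. Renormalized values were 2.74, 3.31 and 2.47 in cyclin D1 glands and 2.39 and 1.99 in control glands, which do not overlap. Alix and Tsg101 themselves are taken up with the related genes.

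Of the spindle genes, Nusap1 and Hmmr separated the groups and Aspm did not. Nusap1, which bundles microtubules around chromosomes, read 3.23, 4.54 and 4.36 in cyclin D1 glands and 2.71 in both control glands (probe set 10474984, chr2:119618298-119650165). The 2 control values were identical to the last digit deposited, as were those of 293 genes in all, so their SD of 0 does not measure the spread between mice. The difference was 1.33 (SE 0.41, limma adjusted p = 0.122), 1.22 after renormalization and 1.08 without replicate 2.

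Hmmr, a hyaluronan receptor that also acts at the spindle poles, read 2.90, 4.69 and 4.18 in cyclin D1 glands and 2.25 and 2.14 in control glands (probe set 10385248, chr11:40701388-40733464). Every cyclin D1 value lay above both controls, which were both below the floor. Allowing for the floor only, the difference was at least 1.47 on the log2 scale (means 3.92 and 2.19, limma adjusted p = 0.117). The measured difference was 1.73 (SE 0.53), with a 95% interval of 0.40 to 3.05, and 1.34 without cyclin D1 replicate 2. Renormalized values were 2.94, 4.21 and 4.08 in cyclin D1 glands and 2.09 and 2.04 in control glands, also without overlap. Replicate 1 was much nearer to the controls than replicates 2 and 3 were.

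Aspm, which focuses microtubules at the spindle poles, read 3.22, 3.66 and 3.56 in cyclin D1 glands and 3.65 and 2.91 in control glands (probe set 10350392, chr1:139454188-139494088). Control 1 lay within the cyclin D1 range and control 2 below it. The difference was 0.20 (SE 0.27, limma adjusted p = 0.664), with an interval of -0.49 to 0.89, and turned to -0.14 after renormalization. Without control 2 it was -0.17, and without control 1 it was 0.57.

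Mki67, whose protein Ki-67 coats mitotic chromosomes and is counted in pathology as a sign of proliferation, had the largest difference of the 10. The gene (probe set 10568714, chr7:135689784-135716450) read 5.25, 7.02 and 6.56 in cyclin D1 glands and 3.63 and 4.10 in control glands. The lowest cyclin D1 gland stood above the higher control by more than the controls differed from each other, though not after renormalization. Mean expression was 6.28 ± 0.92 (SD, n = 3) in cyclin D1 glands and 3.87 ± 0.34 (SD, n = 2) in control glands. This was a 5.32-fold difference (log2 2.41, SE 0.54, 95% interval 1.05 to 3.78), which did not pass over all genes (limma adjusted p = 0.0664). It depended on how the arrays were scaled: renormalized values were 4.76, 6.15 and 6.14 in cyclin D1 glands and 4.17 and 4.54 in control glands, still without overlap, and the difference was 1.33 (adjusted p = 0.224). With genes below the median of mean expression over the 5 arrays left out it passed (adjusted p = 0.0447). As 3 of those arrays are cyclin D1, that filter favours genes high in this group. Of the 9969 genes kept, 1457 were called higher and 68.1% had positive differences, against 44.3% of all genes.

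**Figure D3:**
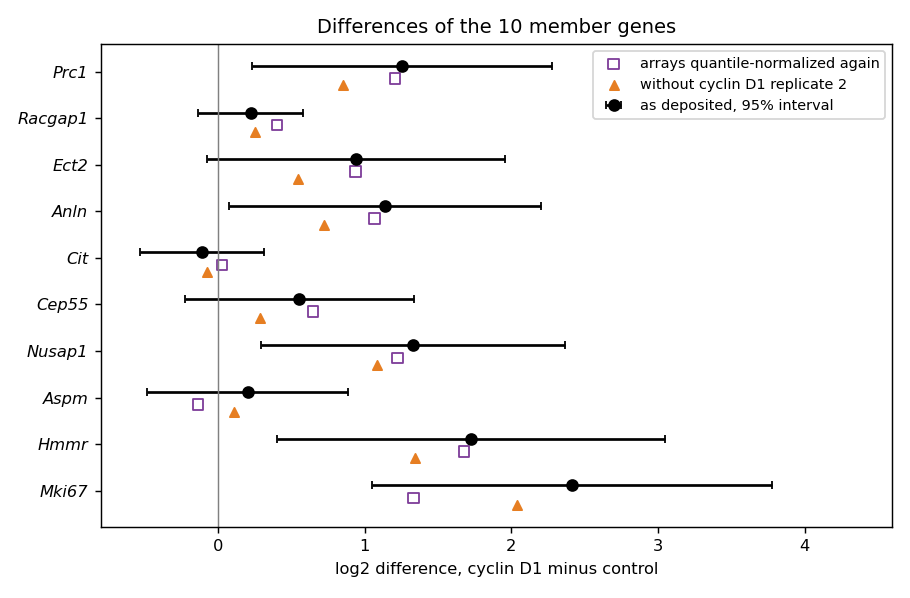
Log2 difference, cyclin D1 minus control, of each member. Filled circles with 95% intervals are the deposited values, open squares the renormalized values and triangles the fit without cyclin D1 replicate 2. Mki67 moves most with renormalization, with 2.41 as deposited and 1.33 renormalized, and the squares and circles lie on opposite sides of 0 for Cit and Aspm.

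The other genes of the midzone, the ring and abscission were read from a list of 35, of which 34 were measured. Of these, 5 were called higher and 0 lower, where 5.38% and 0.687% of all genes were. Positive differences were found for 27, against 44.3% of all genes, and the median was 0.81. The 4 with the smallest p were Septin2 (1.81, limma adjusted p = 0.0205), which forms septin filaments under the ring, Pdcd6ip, which encodes Alix (2.25, adjusted p = 0.0255), Rhoa (2.14, adjusted p = 0.0318) and Septin9 (0.82, adjusted p = 0.0333). The fifth called gene, named because it was called, was Incenp, the scaffold of the chromosomal passenger complex (0.74, adjusted p = 0.0466), whose difference is inexact because control 1 lay below the floor. Septins, Alix and RhoA also serve cells that are not dividing. After renormalization 0 of the 34 passed, beside 0.256% of all genes called higher. At an unadjusted p under 0.05, 11 of the list were then higher, against 9.33% of all genes. The median was 0.18, with Septin2 at 0.76, Pdcd6ip at 1.29, Rhoa at 0.31, Septin9 at 0.75 and Incenp at 0.83. With replicate 1 or 2 of the cyclin D1 group left out, none of the list was called. In those fits 0 of all genes were called, so this is not particular to the list. Leaving out replicate 3 of that group gave 3 called in the list, beside 299 of all genes higher and 2 lower.

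Partners of the members that act mainly in division were looked at by role, after their values were seen. Kif23, the kinesin that completes centralspindlin with Racgap1, read 3.11, 3.55 and 3.46 in cyclin D1 glands and 2.80 and 2.76 in control glands, without overlap (difference 0.59, SE 0.18, limma adjusted p = 0.112, and 0.58 after renormalization). Kif4, the partner of Prc1, read 3.77, 4.79 and 4.81 in cyclin D1 glands and 3.13 and 3.02 in control glands (difference 1.38, SE 0.36, adjusted p = 0.0848, and 1.07 after renormalization). Both genes thus separated the groups without passing. Kif20a, which carries the passenger complex to the midzone, differed by 0.05 (adjusted p = 0.922), inexact because 1 control lay at or below the floor. Plk1, the kinase that primes Racgap1 to bind Ect2, differed by 0.18 (adjusted p = 0.613). The passenger kinase gene Aurkb differed by -0.52 (adjusted p = 0.39).

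Spindle and proliferation genes other than the members were read from a list of 38, of which 37 were measured. Of these 7 were called higher and 0 lower, beside 5.38% and 0.687% of all genes. Positive differences were found for 32, against 44.3% of all genes, and the median was 0.91. Kif11, the motor that separates the poles, read 4.41, 5.38 and 5.198 in cyclin D1 glands and 2.14 and 2.19 in control glands. Both controls were below the floor, and allowing for that only, the difference was at least 2.54 (limma adjusted p = 0.0179). The measured difference was 2.83, with a 95% interval of 2.04 to 3.62. The topoisomerase gene Top2a differed by 3.25 (adjusted p = 0.0213), the microtubule destabiliser gene Stmn1 by 3.49 (adjusted p = 0.0274) and the kinetochore gene Cenpf by 1.29 (adjusted p = 0.0321). The other 3 called, named for that reason, were Mcm6 of the replicative helicase and the checkpoint genes Bub1 and Bub1b. After renormalization 1 of the 37 passed, Kif11 at 2.57, beside 0.256% of all genes called higher, and the median stayed at 0.91. Top2a was then at 2.52, Stmn1 at 1.89 and Cenpf at 1.02. No gene of the list was called with any 1 cyclin D1 array left out. Over all genes, 0 were called without cyclin D1 replicate 1 or 2, so the 0 there is not particular to the list. Without cyclin D1 replicate 3, 299 of all genes were higher and 2 lower.

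Regulators that switch late cell cycle genes on and off, among them the MuvB subunits that bind CHR sites, formed a list of 16, all measured. Rb1, the retinoblastoma gene, was called higher (2.69, limma adjusted p = 0.0238) and 0 were lower, beside 5.38% and 0.687% of all genes. In the list 14 had positive differences, against 44.3% of all genes, and the median was 0.63. The next by p were Lin54, the DNA-binding subunit of MuvB (1.61, adjusted p = 0.0673), E2f5 (0.79, adjusted p = 0.0695) and Lin9, another MuvB subunit (1.38, adjusted p = 0.0795), none of which passed. Lin54 and E2f5 each lay below the floor in 1 control, so their differences are inexact. After renormalization 0 of 16 passed, beside the same 0.256%. At an unadjusted p under 0.05, 6 were then higher, against 9.33% of all genes. The median was 0.32, with Rb1 at 1.05, Lin54 at 1.45 and Lin9 at 1.09. Rb1 was not called when any 1 of the cyclin D1 arrays was left out, but without replicate 1 or 2 of that group 0 of all genes were called. Foxm1, the activator of G2 and mitotic genes, chosen here by role, read 2.97, 3.75 and 3.48 in cyclin D1 glands and 2.46 and 2.85 in control glands, without overlap (0.74, adjusted p = 0.163, and 0.76 after renormalization). Its difference is inexact, as control 1 lay below the floor.

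**Figure D4:**
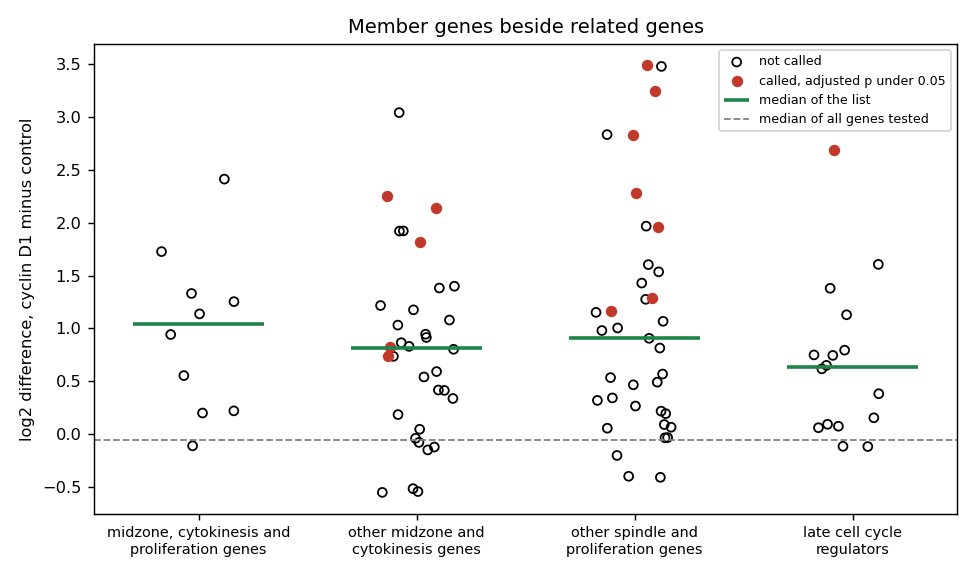
Log2 differences, cyclin D1 minus control, of the 10 members and of 3 lists of related genes. Each point is a gene, filled where it was called, green lines are list medians and the dashed line is the median of all genes. The medians are 1.04, 0.81, 0.91 and 0.63 from left to right, and 0 of the 10 members are filled.

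Whole glands hold several cell types, and in such samples more dividing cells and more RNA per dividing cell cannot be told apart. The 8 luminal epithelial markers all had positive differences, with a mean of 4.64, 4.51 and 4.35 in cyclin D1 glands and 3.37 and 3.57 in control glands. Of these, Epcam (2.49, limma adjusted p = 0.0184) and Cdh1 (1.37, adjusted p = 0.0228) were called, named for that reason. Over all genes, 44.3% had positive differences, 5.38% were called higher and 0.687% lower, and 0.256% were called higher after renormalization. Neither was called after renormalization (Epcam 1.54, adjusted p = 0.063, and Cdh1 0.88, adjusted p = 0.0801). After renormalization the means were 4.31, 4.12 and 4.19 in cyclin D1 glands and 3.74 and 3.74 in control glands, and 7 of 8 were positive, Krt18 being at -0.55. Of 7 myoepithelial markers 5 had positive differences and 1 was called, Acta2, the smooth muscle actin gene (2.48, limma adjusted p = 0.0349), which was not called after renormalization (0.92, adjusted p = 0.177). The luminal mean thus separated the groups as the mean of the members did. Within the cyclin D1 group the order differed, since replicate 1 had the highest luminal mean and the lowest mean of the members. The part of the epithelial markers in the members' difference was not tested. Both groups held markers of the labelled tissue, among them Fabp4 of adipocytes, chosen after its values were seen, at 10.2, 8.07 and 9.62 in cyclin D1 glands and 8.88 and 9.05 in control glands.

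As deposited, the mean of 7 T and B cell genes was 3.13, 4.18 and 2.91 in cyclin D1 glands and 3.14 and 3.65 in control glands. Cyclin D1 replicate 2, in which 8 of the members were highest as deposited, thus stood highest here too. Genes of the list, named after their values were seen, did not all follow this order. Ptprc, the pan-leukocyte gene, read 6.10, 7.38 and 4.68 in cyclin D1 glands and 3.96 and 6.22 in control glands. Ms4a1, a gene of B cells, read 2.41, 4.44 and 2.17 in cyclin D1 glands and 2.73 and 3.37 in control glands. As deposited, Cd3e, Cd3g and Cd2, of T cells, were highest of all arrays in cyclin D1 replicate 2, at 3.86, 4.59 and 4.15. The higher control read 3.47, 3.85 and 3.98. After renormalization Cd3e and Ms4a1 stayed highest in that replicate, at 3.65 and 4.05. Cd3g was then highest in control 1 (4.68, against 4.15 in cyclin D1 replicate 2). Cd2 and Ptprc were then highest in control 2 (4.37 and 6.77, against 3.85 and 6.51). The renormalized mean of the 7 genes was 3.89 in cyclin D1 replicate 2 and 3.80 in control 2. As deposited, Cd79b, of the B cell receptor, read 2.55, 2.90 and 2.84 in cyclin D1 glands. It read 2.82 and 3.42 in control glands, highest in control 2. Cd79a, of the same receptor, read 1.84, 1.95 and 2.21 in cyclin D1 glands and 2.62 and 2.23 in control glands. It lay at or below the floor on all 3 cyclin D1 arrays and in 1 control, so no order can be read from it. The mean of the 7 adipocyte markers was lowest in cyclin D1 replicate 2, at 6.15, 4.78 and 5.63 in cyclin D1 glands and 5.32 and 5.48 in control glands. As deposited 3 of the 7 had positive differences, with a median of -0.06, and after renormalization 0 of 7 did, with a median of -1.01. The part of the lymphocyte and adipocyte markers in the members' difference was not tested. Without cyclin D1 replicate 2 the difference of Mki67 was 2.04, that of Nusap1 1.08, that of Prc1 0.85 and that of Anln 0.72. None of the 7 lymphocyte genes was called, and 3 had positive differences. Macrophage, fibroblast, endothelial, red blood cell and skeletal muscle lists had 0 called members of 5, 6, 5, 2 and 5 measured, with median differences of -0.02, 0.38, 0.47, -0.10 and -0.23. Beside 5.38% of all genes called higher and 0.687% lower, 0 called in lists this short says little.

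**Figure D5:**
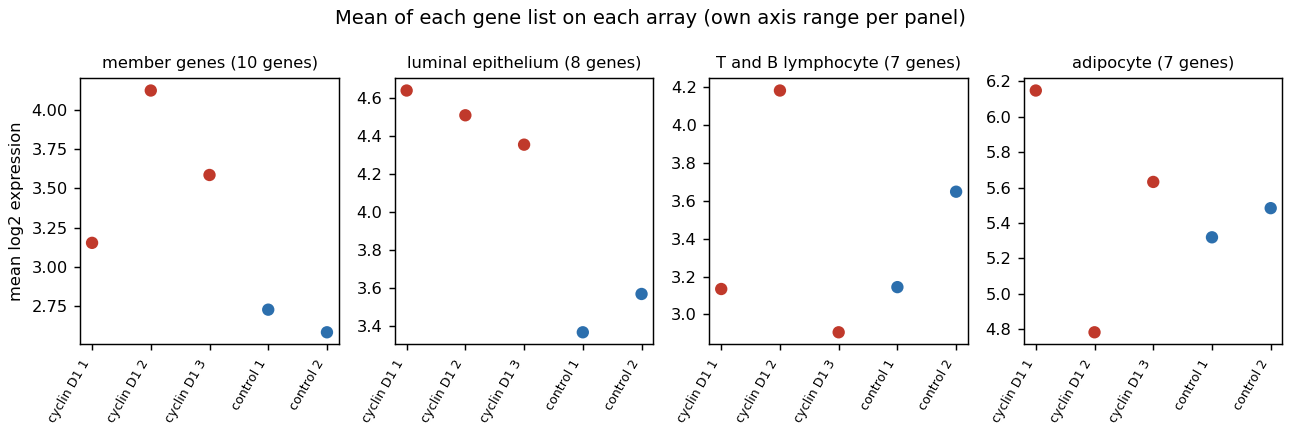
Mean log2 expression of the members and of 3 marker lists on each array, cyclin D1 glands in red and control glands in blue, with a separate vertical range in each panel. The luminal epithelial mean separates the groups, whereas the lymphocyte mean is highest, at 4.18, and the adipocyte mean lowest, at 4.78, in cyclin D1 replicate 2.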

How the data were processed

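The authors deposited log2 values for each probe set. The submitters' processing notes name Affymetrix Expression Console 1.1 with RMA, which corrects background, quantile-normalizes and summarises probes. The log base was inferred from their range of 0.83 to 12.9. Background settings and the arrays normalized together are not given in the sources used here. Without detection calls or raw signals, the number of arrays limits the precision. Of 35556 probe sets, 21789 had 1 gene symbol, 1621 several and 12146 none; symbols were matched through Entrez identifiers to GRCm38.p6 (21698 matched). The brightest probe set per symbol was kept, which gave 19938 genes, unfiltered. Groups came from the sample titles, and the design text states separate mice. Cyclin D1 arrays were compared with control arrays by limma 3.58.1 in R 4.3.3 (lmFit, eBayes, 3 residual and 2.39 prior degrees of freedom). Benjamini-Hochberg adjustment was over all genes with a threshold of 0.05, and intervals use the same fit. The fit was tested on simulated data in which the groups did not differ in range. That test therefore does not cover the unequal ranges of these arrays.

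The members and gene lists were chosen with earlier results of these data known, so no test over a list was made. Genes named are the members, Ccnd1, the 4 of smallest p in each related list, others that were called, and partners and cell type markers chosen by role or after their values were seen. Alternatives were renewed quantile normalization, centring, scaling, other priors, a dim-gene filter, other probe set summaries, array weights, a replicate block and left-out arrays.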

Additional observations from a re-analysis of the deposited data

How the results depend on the processing

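Of 167 alternative values of the 10 members, 159 kept their sign and their side of the threshold. That count overstates how much could have changed. With 1 probe set per member, the other priors, the dim-gene filter and the other probe set summaries could not move a difference. Without cyclin D1 replicate 1 or 2, 0 of all genes were called, so staying uncalled there says little about the members. Without control 1 or control 2 only 1 control is left, so staying uncalled there says little as well. Mki67 passed with dim genes left out (2.41). Cit turned positive after renormalization (0.024), after centring and scaling (0.028), without control 1 (0.038) and renormalized without control 1 (0.18), and lay between -0.26 and 0.038 with 1 array left out. Aspm turned negative after renormalization (-0.14), without control 2 (-0.17, against 0.57 without control 1) and renormalized without control 2 (-0.89), where it was called lower (limma adjusted p = 0.028). The members called were thus 0 as deposited, 1 with dim genes left out, where 7 of the 10 were tested, and 1 when renormalized without control 2; otherwise 0. The median difference of the members lay between 0.63 and 1.26 with 1 array left out, and scaling moved the median of all genes by 0.11.

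Among the 34 midzone and cytokinesis genes, 5 were called as deposited, 0 after renormalization, 3 after scaling, 7 after centring, 3 with an intensity trend, 9 with dim genes left out, 0 with array weights, 1 and 5 renormalized without control 1 and without control 2, and 0 to 6 with 1 array left out. Among the 37 spindle and proliferation genes, 7 were called as deposited, 1 after renormalization, 3 after scaling, 9 after centring, 9 with dim genes left out, 0 with array weights, 1 and 9 renormalized without control 1 and without control 2, and 0 to 4 with 1 array left out. Among the 16 regulators, 1 was called as deposited, 0 after renormalization, 2 after centring, 2 with dim genes left out, 0 with array weights, 0 and 4 renormalized without control 1 and without control 2, and 0 to 1 with 1 array left out. Over all genes, 1072 were higher and 137 lower as deposited, 51 and 21 after renormalization, 597 and 71 after scaling, 622 and 185 with an intensity trend, 1457 and 56 with dim genes left out, 263 and 4 with array weights, and 555 and 894 or 2221 and 3154 renormalized without control 1 or control 2. With 1 array left out they were 0 to 1365 and 0 to 1063. Causes were not tested.

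Replicate numbers 1 and 2 occur in both groups without a stated pairing. Deviations from the group means correlated at -0.026 between the arrays numbered 1 and at 0.126 between those numbered 2. With the number as a replicate block, 1137 genes were higher and 10 lower, the members' median was 1.15, 0 members were called, and 4, 6 and 2 genes of the 3 related lists were called.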
